A study of Mus musculus with 6 samples.

Results

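The 9 genes described here carry an interferon signal from the cell surface to the nucleus: the receptor chain genes Ifnar1, Ifnar2 and Ifngr1, the kinase gene Jak1, the signal transducer gene Stat2, and the interferon regulatory factor genes Irf1, Irf3, Irf7 and Irf9. They were taken by gene symbol from the 11754 protein-coding genes listed, together with their 24 transcripts of 22148 listed. RNA was measured in 2H11, an established endothelial mouse line that the labels place in the C3H/HeJ strain, with axillary lymph node and vascular epithelium as its source. All cells were starved. One group of 3 samples was then kept untreated and the other group of 3 samples received BMP4, a secreted bone morphogenetic protein, for 48 h. Values are FPKM, fragments per kilobase relative to library size, which puts genes of different length on one scale. The question for these genes is at which step of the pathway the lower interferon response of BMP4-treated cells is seen in RNA levels.

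Type I interferons bind a receptor made of IFNAR1 and IFNAR2, whose kinases TYK2 and JAK1 then phosphorylate STAT proteins, STAT2 among them. These bind IRF9 to form ISGF3, which attaches to interferon-stimulated response elements (ISREs) in target genes, Stat2, Irf9 and Irf7 among them. Interferon-gamma binds IFNGR1 and IFNGR2, acts through JAK1 and JAK2 on gamma-activated sites (GAS), and induces Irf1. IRF3 is present before infection and is activated by phosphorylation, whereas IRF7 is itself made in response to interferon and amplifies interferon production.

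Promoter windows of all 9 members were found in RefSeq (GRCm38.p6), 11 windows in all because Irf1 and Irf9 have a pair of start sites each. Each window runs from 250 bases before to 50 bases after a start. The ISRE core searched was GAAA, any 2 bases and GAAA again, on either strand. It was found in 1 of the 11 windows, that of Stat2, and in 3.44% of 32851 windows of all genes. The GAS letters TTCNNNGAA, a pattern that reads the same on both strands, were found in the windows of Ifnar1, Ifnar2 and the upstream start of Irf1, and in 8.30% of all windows. Over the windows of 27 type I interferon target genes listed below, the ISRE core was present in 12 of 30. Over those of 22 interferon-gamma and IRF1 target genes it was present in 10 of 24. A match is a run of letters and not a measured binding site, and a window without a match says nothing about the factor. The first sequence is the stretch before the RefSeq start of Stat2, a member that fell, chr10:128270248-128270497, plus strand, with the ISRE core (reverse strand) in capitals. The second is the stretch before the upstream start of Irf1, chr11:53769764-53770013, plus strand, with the GAS letters in capitals. The third is the stretch before the downstream start of Irf9, chr14:55604329-55604578, plus strand, shown because the transcript from that start fell. It has no ISRE core, and its capitals mark 3 single copies of GAAA or TTTC, which overlap the ISRE letters and are present in 89.2% of all windows. The stretch also spans the second exon of Irf9-002, which starts further upstream.
Stat2: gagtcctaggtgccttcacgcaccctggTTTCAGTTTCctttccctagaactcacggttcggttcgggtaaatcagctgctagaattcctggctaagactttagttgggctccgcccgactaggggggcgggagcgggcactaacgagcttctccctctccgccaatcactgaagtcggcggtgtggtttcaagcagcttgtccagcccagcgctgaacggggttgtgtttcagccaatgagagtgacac
Irf1: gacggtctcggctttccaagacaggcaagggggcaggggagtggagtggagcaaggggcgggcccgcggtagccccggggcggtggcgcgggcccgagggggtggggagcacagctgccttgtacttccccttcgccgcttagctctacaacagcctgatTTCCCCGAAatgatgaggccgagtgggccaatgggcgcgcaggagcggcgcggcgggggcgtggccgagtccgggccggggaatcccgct
Irf9 downstream start: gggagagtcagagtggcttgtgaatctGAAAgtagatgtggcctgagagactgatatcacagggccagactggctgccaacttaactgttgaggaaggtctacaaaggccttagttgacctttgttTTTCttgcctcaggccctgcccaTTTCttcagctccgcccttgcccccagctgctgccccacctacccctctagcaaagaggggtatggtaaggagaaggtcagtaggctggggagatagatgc

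The summed FPKM of all genes was 252329 to 273562 per sample. The number of reads is unknown, so precision is known only from the 3 replicates, and the labels do not say whether these came from separate cultures. The p-values therefore measure only the spread between these samples, which may be technical. Of 10 endothelial markers, 3 had values and 7, Pecam1, Cdh5 and Kdr among them, were not found by symbol among the listed genes. A gene that is not listed has no value here, and its level is unknown. The 3 were Eng and Egfl7, which did not pass the test, and Flt1, which rose from 0.924 ± 0.0677 to 1.96 ± 0.110 FPKM (SD, n = 3 per group). Of 5 lymphatic endothelial markers 2 were tested, of which Pdpn fell and Nrp2 rose, and the 4 epithelial markers were not found among the listed genes. All 7 fibroblast markers had values. Of those 7, 6 fell and 1, Pdgfra, rose, and their summed level was 2906 to 2972 FPKM in untreated and 1458 to 1467 FPKM in BMP4 samples. The highest untreated means in that sum were those of Col1a1, at 1059 FPKM and 691 with BMP4, and Col3a1, at 746 and 197. For each marker list the shares to set beside it are 14.3% lower and 13.6% higher among all genes tested. Of 10 leukocyte markers, 3 had values (Cd68, Cd14 and Lyz2), 0 of the 3 passed the test, and their sum was 10.3 to 15.6 FPKM untreated and 12.1 to 13.7 with BMP4. Fewer cells of a type and less RNA per cell cannot be told apart in bulk samples, and the part of these cell types in the results below was not tested.

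No change of the receptor and kinase genes passed the test, while Stat2, Irf7 and Irf9 were lower in every BMP4 sample. Of the 9 members, 3 fell and 0 rose by limma's moderated test, with an adjusted p threshold of 0.05 over all 10932 genes tested. In the same comparison 27.9% of all genes tested passed, 14.3% lower and 13.6% higher with BMP4. The 3 falls were all among the 5 STAT and IRF genes, and 0 of the 4 receptor chain and kinase genes passed. At an unadjusted p under 0.05 the count of members higher with BMP4 was also 0. The median log2 fold change of the members, on the log2(FPKM + 1) scale used throughout, which understates changes of low genes, was -0.05, beside 0.00 over all genes tested. All BMP4 samples lay below all untreated samples for 3 members and above them for 2 members, and the groups overlapped for 4. Among all genes tested, BMP4 samples were all lower for 23.1% and all higher for 22.4%, so groups did not overlap for 45.5%.

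**Figure D1:**
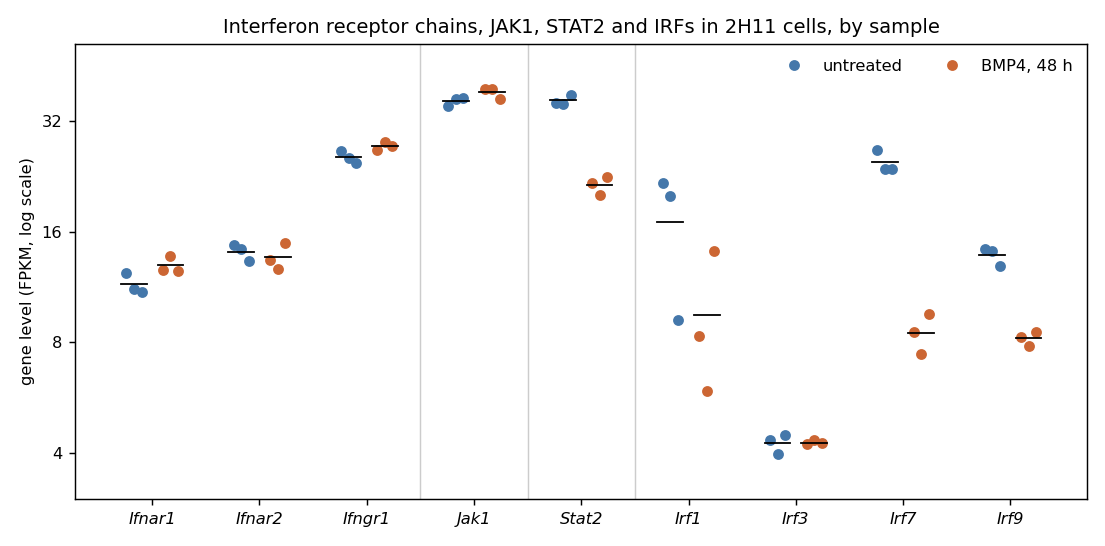
Gene level in FPKM (log axis) of the 9 members in each of 3 untreated samples (blue) and 3 BMP4 samples (orange), with horizontal lines at the group means. Stat2, Irf7 and Irf9 separate downwards with BMP4, and Irf1 is scattered from 5.92 to 21.8 FPKM. Ifnar1 and Ifngr1 lie slightly higher in every BMP4 sample without passing the test, and Ifnar2, Jak1 and Irf3 overlap between the groups.

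In untreated cells the order of the mean gene levels was Stat2 at 36.5 FPKM, Jak1 at 36.4, Ifngr1 at 25.6, Irf7 at 24.7, Irf1 at 17, Ifnar2 at 14.1, Irf9 at 13.8, Ifnar1 at 11.5 and Irf3 at 4.26. The replicates of neighbours overlapped for Stat2 and Jak1, for Ifngr1 and Irf7, for Irf1 and Ifnar2, and for Ifnar2 and Irf9, so their order is not fixed by these samples. With BMP4 the order was Jak1 at 38.5 FPKM, Ifngr1 at 27.5, Stat2 at 21.6, Ifnar2 at 13.7, Ifnar1 at 13.0, Irf1 at 9.46, Irf7 at 8.52, Irf9 at 8.21 and Irf3 at 4.27. Here the replicates of each neighbouring pair from Ifnar2 down to Irf9 overlapped. Irf7 stood with the interferon-gamma receptor chain in untreated cells and with Irf1 and Irf9 in treated cells. A gene's deposited FPKM can lie below that of its transcripts, as for Jak1 in untreated replicate 1, at 35.3 for the gene and 51.8 for its single listed transcript, so gene and transcript levels are not compared with each other.

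Ifnar1 (chromosome 16, 91485238 to 91507441, GRCm38) encodes the low-affinity chain of the type I interferon receptor. Its level was 12.4, 11.2 and 11 FPKM in the untreated samples and 12.6, 13.8 and 12.5 with BMP4. All BMP4 samples lay above all untreated samples, by a small margin. The log2 fold change was 0.16 (SE 0.07, 95% interval -0.0007 to 0.31), which did not pass (limma adjusted p = 0.127). Ifnar2 (chromosome 16, 91372783 to 91405589) encodes the chain that binds interferon most tightly. It was at 14.7, 14.4 and 13.3 FPKM untreated and 13.4, 12.7 and 14.9 with BMP4, and the groups overlapped. Its log2 fold change was -0.05 (SE 0.07, 95% interval -0.22 to 0.12, limma adjusted p = 0.661).

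Ifngr1 (chromosome 10, 19591949 to 19610229) encodes the ligand-binding chain of the interferon-gamma receptor. It was at 26.5, 25.5 and 24.7 FPKM untreated and at 26.8, 28.2 and 27.5 with BMP4. The treated samples were all higher, but the log2 fold change of 0.10 (SE 0.05, 95% interval -0.01 to 0.21) did not pass (limma adjusted p = 0.157). Jak1 (chromosome 4, 101152367 to 101265282), the kinase shared by both interferon receptors and by many cytokine receptors, was at 35.3, 36.9 and 37.0 FPKM untreated and 39.3, 39.3 and 36.8 with BMP4. These groups overlapped (log2 fold change 0.08, SE 0.05, 95% interval -0.03 to 0.19, limma adjusted p = 0.266). For these 4 genes the intervals leave room for a fall of at most 0.22 on the log2 scale, the lower bound for Ifnar2.

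A list of the other interferon receptor chains and JAK kinases held Ifngr2, Il10rb, Ifnlr1, Tyk2, Jak2 and Jak3. Of these 6 tested genes, 1 rose, 0 fell and the median log2 fold change was 0.00, beside 14.3% lower and 13.6% higher among all genes. Ifnlr1 and Jak3 did not pass (limma adjusted p = 0.842 and 0.72). The gene that rose was Jak2, the kinase carried by IFNGR2, from 11.4, 11.1 and 11.5 FPKM untreated to 18.7, 17.8 and 17.6 with BMP4 (log2 fold change 0.63, SE 0.05, limma adjusted p = 0.000126). Every BMP4 sample was above every untreated sample. Tyk2, the partner kinase of JAK1 on the type I receptor, was at 4.91, 5.15 and 4.66 FPKM untreated and 5.29, 5.30 and 5.46 with BMP4 and did not pass (limma adjusted p = 0.245). Ifngr2, the second chain of the interferon-gamma receptor, was at 22.7 ± 0.633 and 23.1 ± 0.576 FPKM (limma adjusted p = 0.704). Il10rb, a chain of the type III interferon and interleukin-10 receptors, was at 8.40 ± 0.494 and 7.38 ± 0.756 FPKM (limma adjusted p = 0.175). Interferon genes themselves, 13 in the list, were not found by symbol among the listed genes, so their level is unknown.

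Stat2 (chromosome 10, 128270576 to 128292849) encodes a STAT that binds IRF9 in ISGF3. It was at 35.9, 35.8 and 37.8 FPKM in the untreated samples and at 21.8, 20.2 and 22.6 with BMP4. The groups were far apart beside their spread. The untreated mean of 36.5 ± 1.12 FPKM was 1.69-fold that of BMP4 samples, 21.6 ± 1.21. The log2 fold change of -0.73 (SE 0.06) passed with a limma adjusted p of 9.62e-05. Of the 2 listed transcripts, Stat2-201 held 99.9%, 99.6% and 95.8% of their summed FPKM untreated and at least 99.9% with BMP4. Stat2-201 fell from 36.0 ± 0.273 to 21.6 ± 1.22 FPKM (limma adjusted p = 0.00165 over 17213 transcripts). Stat2-202 differs from it in coding length by 1 codon (2769 against 2766 bases) and was at 1.58 FPKM in untreated replicate 3 and at or below 0.132 in the other samples.

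Stat6, Stat3 and Stat5b are STAT genes of other cytokine pathways. Stat6, the STAT of interleukin-4 signalling, fell from 18.7 ± 0.493 to 16.1 ± 0.586 FPKM (limma adjusted p = 0.0238). Stat6 did not pass with untreated replicate 2 (0.0803), BMP4 replicate 1 (0.0946) or BMP4 replicate 2 (0.075) left out. Stat3, the STAT of interleukin-6 family signals, was at 18.0 ± 1.24 and 16.5 ± 0.176 FPKM and Stat5b at 12.7 ± 0.0329 and 12 ± 0.472, and neither passed (limma adjusted p = 0.172 and 0.301).

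Irf9 (chromosome 14, 55603571 to 55610030) encodes the DNA-binding subunit of ISGF3. It was at 14.4, 14.2 and 12.9 FPKM untreated and 8.29, 7.81 and 8.53 with BMP4. No treated sample reached the lowest untreated one. The untreated mean of 13.8 ± 0.767 FPKM was 1.68-fold that of BMP4 samples, 8.21 ± 0.365. The log2 fold change of -0.69 (SE 0.06) passed with a limma adjusted p of 0.000258. Within a sample the ratio of Irf9 to Stat2 was 0.400, 0.395 and 0.342 untreated and 0.381, 0.386 and 0.377 with BMP4. That ratio overlapped between the groups, while both of its genes were lower with BMP4.

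Irf7 (chromosome 7, 141262706 to 141266481), the interferon-induced factor that drives interferon-alpha genes, had the largest fall of the 9 members. It was at 26.8, 23.7 and 23.7 FPKM untreated and 8.57, 7.43 and 9.55 with BMP4. The highest treated sample was below the lowest untreated sample by more than the range of either group. The untreated mean of 24.7 ± 1.79 FPKM was 2.90-fold that of BMP4 samples, 8.52 ± 1.06. The log2 fold change of -1.44 (SE 0.09) passed with a limma adjusted p of 4.8e-05. Of all genes tested, 0.576% had a lower log2 fold change.

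Irf3 (chromosome 7, 44997648 to 45002848), the factor that TBK1 phosphorylates once viral nucleic acid is sensed, was at 4.34, 3.97 and 4.47 FPKM untreated and 4.22, 4.34 and 4.25 with BMP4. The treated samples lay within the untreated range. Its log2 fold change was 0.00 (SE 0.06, 95% interval -0.15 to 0.16, limma adjusted p = 0.978), with a sign that turned to -0.02 when samples were centred on the median gene, to -0.04 without untreated replicate 2 and to -0.01 without BMP4 replicate 2. The ratio of Irf7 to its close relative Irf3 within a sample was 6.17, 5.96 and 5.30 untreated and 2.03, 1.71 and 2.25 with BMP4. Every treated ratio was below every untreated one.

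Irf1 (chromosome 11, 53770014 to 53778374), the interferon-gamma-induced activator of antigen presentation genes, varied more within groups than any other member. It was at 21.8, 20.0 and 9.19 FPKM untreated and 8.31, 5.92 and 14.2 with BMP4. Untreated replicate 3 lay among the treated samples and BMP4 replicate 3 above it. The log2 fold change was -0.77 (SE 0.37, 95% interval -1.65 to 0.11) and did not pass (limma adjusted p = 0.170). Without untreated replicate 3 it was -1.14 and passed (limma adjusted p = 0.0405). Over all 15 alternatives the limma adjusted p ranged from 0.0405 to 0.403.

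Of the other IRF genes and their IRF2-binding partners, 2 of 5 tested rose and 1 fell, with a median log2 fold change of 0.04. Among all genes 13.6% were higher and 14.3% lower. Irf2bpl, an IRF2-binding protein gene, fell from 16.8 ± 0.484 to 9.93 ± 0.211 FPKM (limma adjusted p = 7.13e-05). Irf2bp2, a corepressor of IRF2, rose from 13.8 ± 1.10 to 17.9 ± 0.405 FPKM (limma adjusted p = 0.00728). Irf2, which can oppose IRF1 at shared sites, rose from 2.70 ± 0.184 to 3.43 ± 0.303 FPKM (limma adjusted p = 0.0450). Irf2 did not pass with any 1 of the 6 samples left out, with limma adjusted p from 0.0535 to 0.119, and the number of rises in the list was then 1. Irf5, an IRF of myeloid cells, was at 1.97 ± 0.289 and 1.86 ± 0.0243 FPKM and did not pass (limma adjusted p = 0.693).

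The 24 listed transcripts show which RNA forms carried these levels, as estimated by the authors' software. Of these, 19 had a mean of at least 1 FPKM and were tested, and 5 lay below. Of the 19, 5 fell and 0 rose. Among all transcripts tested 8.55% passed, 4.53% lower and 4.03% higher. The transcripts that fell were Stat2-201, Irf7-001, Irf7-002, Irf7-003 and Irf9-003. All BMP4 samples were lower for 8 of the 19 and higher for 2, while groups did not overlap for 30.6% of all transcripts tested.

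**Figure D2:**
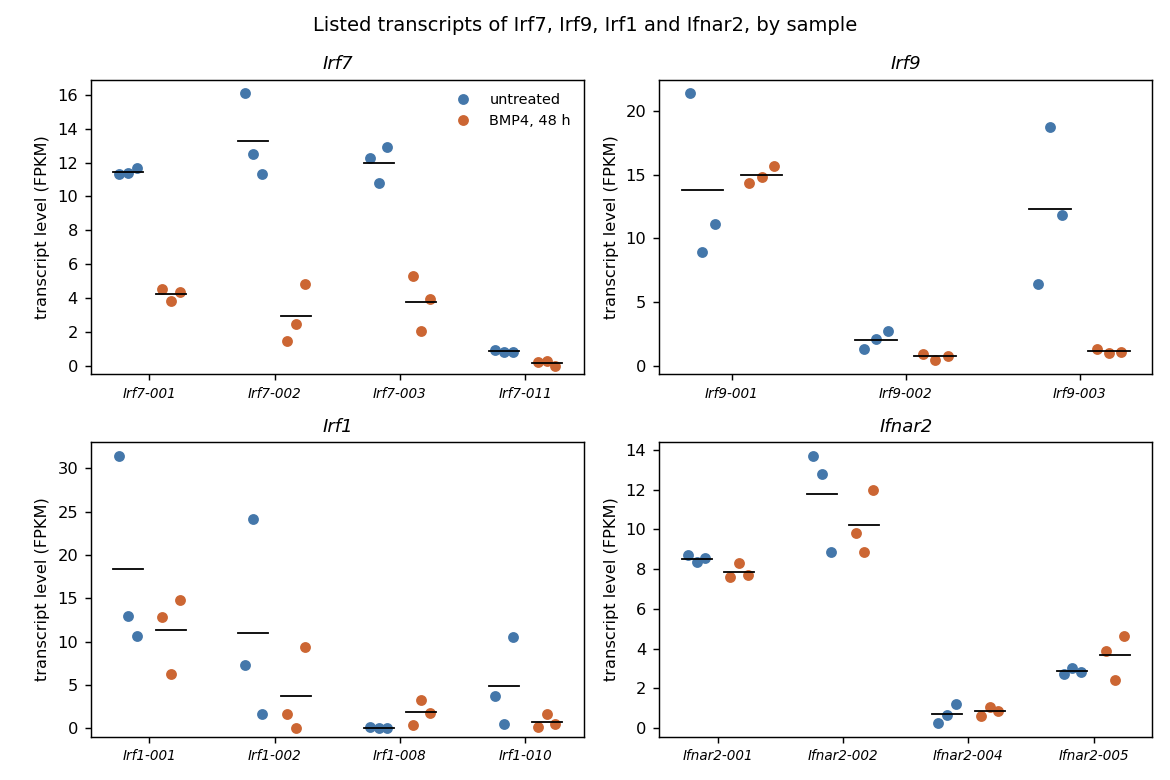
Level in FPKM of each listed transcript of Irf7, Irf9, Irf1 and Ifnar2 in 3 untreated samples (blue) and 3 BMP4 samples (orange), with lines at the group means. The Irf7 transcripts -001, -002 and -003 separate downwards and Irf9-003 drops to 1.11 FPKM while Irf9-001 does not, and the untreated values of Irf9 and Irf1 transcripts scatter widely.

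The 3 tested transcripts of Irf7 share most exons and differ inside the coding part by an exon that Irf7-002 skips and one that is shorter in Irf7-003, with coding lengths of 1371, 1278 and 1275 bases. Irf7-001 was at 11.3, 11.4 and 11.7 FPKM untreated and 4.55, 3.81 and 4.37 with BMP4 (log2 fold change -1.25, SE 0.09, limma adjusted p = 0.00124). Irf7-002 was at 16.1, 12.5 and 11.3 FPKM untreated and 1.48, 2.45 and 4.82 with BMP4 (limma adjusted p = 0.0254). Irf7-003 was at 12.3, 10.8 and 12.9 FPKM untreated and 5.32, 2.05 and 3.96 with BMP4 (limma adjusted p = 0.0310). In each, the groups stood apart, but the calls of Irf7-002 and Irf7-003 were lost when any 1 of several samples was left out. Fewer transcripts passed then in the whole set too, with 339 to 543 higher beside 693 and 400 to 536 lower beside 779. Leaving out untreated replicate 1, 2 or 3 took the limma adjusted p of Irf7-002 to 0.0822, 0.0866 and 0.0667, and leaving out BMP4 replicate 1 or 2 took it to 0.0554 and 0.0964. For Irf7-003 it was 0.0957, 0.0913 and 0.0962 with untreated replicate 1, 2 or 3 left out, and 0.0834 with BMP4 replicate 3 left out.

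Irf9 has 3 listed transcripts with different starts. Irf9-001 starts 594 bases upstream of Irf9-003, the RNA whose upstream sequence is printed above, and Irf9-002 starts 414 bases further upstream. All exons from the second of Irf9-001 on are shared, Irf9-002 has 1 further exon before them, and the coding lengths are 1197, 1395 and 1251 bases. Irf9-003 was at 6.38, 18.7 and 11.8 FPKM untreated and 1.26, 1.02 and 1.06 with BMP4. All treated samples were far below the lowest untreated one, and its mean was 11-fold lower (log2 fold change -2.54, SE 0.36, limma adjusted p = 0.0132). Irf9-001 was at 21.4, 8.91 and 11.1 FPKM untreated and 14.3, 14.8 and 15.7 with BMP4, with the treated samples inside the untreated range (log2 fold change 0.20, SE 0.31, limma adjusted p = 0.766). Irf9-002 was at 1.27, 2.08 and 2.73 FPKM untreated and 0.917, 0.462 and 0.764 with BMP4 and did not pass (limma adjusted p = 0.120).

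The share of the summed Irf9 transcripts, worked out after the levels were seen, that Irf9-003 held was 22.0%, 63.0% and 46.0% in the untreated samples and 7.66%, 6.25% and 6.04% with BMP4. The untreated shares were far apart from each other, and none reached down to the treated ones. Balance within a gene, a transcript against the other transcripts of its gene, was tested for 16 member transcripts, and 0 passed with limma, beside 0.244% of all 10232 transcripts in that test. At an unadjusted p under 0.05 the count was 4 of 16, beside 6.07% of all transcripts in that test. The 4 were Ifnar1-001 and Ifnar1-004, with log2 changes in balance of 0.89 and -0.89, and Irf9-001 and Irf9-003. A shift towards 1 transcript is a shift away from the others of its gene, so these 4 are not independent. For Irf9-003 the log2 change in balance was -2.59 (SE 0.62, limma adjusted p = 0.490), whereas the Simes test of limma's diffSplice, which pools the spread over the transcripts of a gene, called Irf9 (adjusted p = 0.0148) and no other member. The fall of Irf9-003 itself did not pass with untreated replicate 3 (limma adjusted p = 0.054), BMP4 replicate 1 (0.0548), 2 (0.061) or 3 (0.0543) left out.

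**Figure D3:**
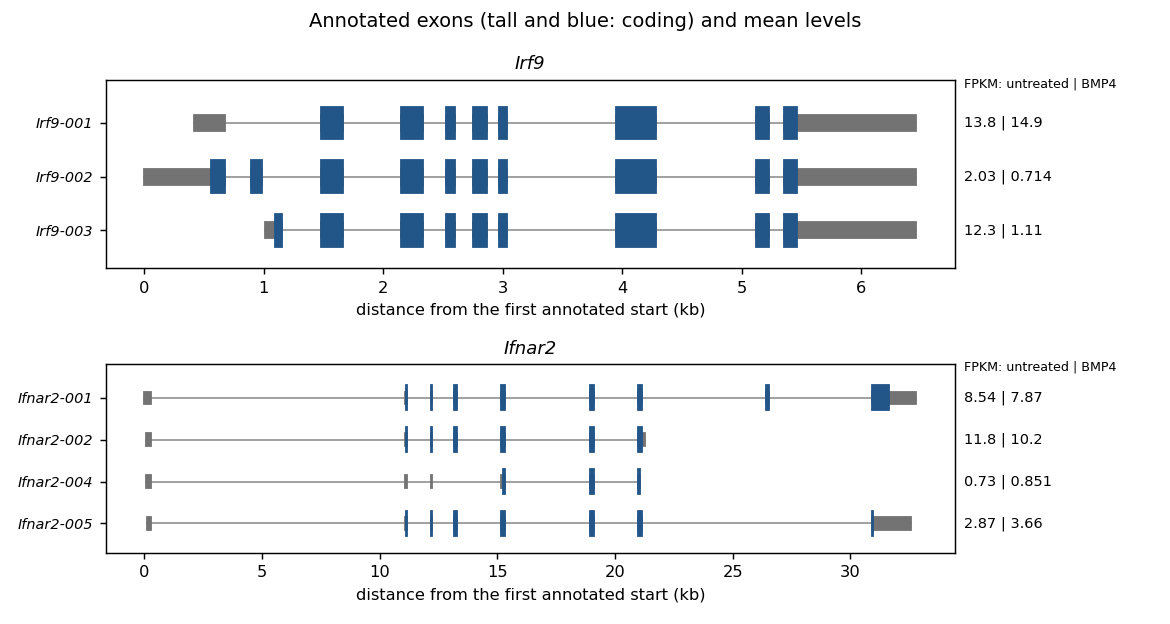
Annotated exons (GENCODE M21, GRCm38) of the listed Irf9 and Ifnar2 transcripts by distance in kb from the first start, with coding parts tall and blue and the mean FPKM of untreated and BMP4 samples at the right. The Irf9 transcripts differ at their starts, with Irf9-003 at 12.3 and 1.11 FPKM, and the Ifnar2 transcripts differ in their last exons.

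Ifnar2 makes a long form with a transmembrane and a cytoplasmic part and short forms that are secreted, which can bind interferon without signalling. Ifnar2-001 codes for the long form with 513 codons, and Ifnar2-002 and Ifnar2-005 code for short forms with 248 and 247 codons. The first 709 coding bases are the same in all 3, after which the short forms read into the following intron or skip an exon. The ends of the coding sequences, from the GENCODE transcripts on GRCm38, plus strand, show where the forms part, with the stop codon in capitals. They lie at chr16:91404385-91404414, chr16:91393922-91393951 and chr16:91403715-91403744.
Ifnar2-001: gatgtgggggacggctacatcatgagaTGA
Ifnar2-002: aggtttttaaaatttgcactattgtttTGA
Ifnar2-005: ccgccactttttaacctggataatcccTGA

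The long form Ifnar2-001 was at 8.71, 8.34 and 8.55 FPKM untreated and 7.60, 8.33 and 7.70 with BMP4. The treated samples were all lower, by less than 0.3 on the log2 scale at the edge of the interval (log2 fold change -0.10, SE 0.07, 95% interval -0.28 to 0.07, limma adjusted p = 0.464). The short forms Ifnar2-002 and Ifnar2-005 together were at 16.5, 15.9 and 11.7 FPKM untreated and 13.7, 11.3 and 16.7 with BMP4. They made up 61.0% ± 5.65 of the gene's transcripts untreated and 61.1% ± 5.79 with BMP4 (SD, n = 3 per group), so the groups overlapped. Ifnar1-001, with 14.5 ± 0.859 FPKM untreated and 17.1 ± 1.44 with BMP4, and Ifnar1-004, with 1.80 ± 0.447 and 0.762 ± 0.180, have the same coding length of 1770 bases. Neither passed (limma adjusted p = 0.178 and 0.105), although the groups did not overlap in either.

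Irf1 transcripts were the least stable between replicates. Irf1-001, from the upstream start whose sequence is printed above, was at 31.4, 13.0 and 10.6 FPKM untreated and 12.8, 6.29 and 14.8 with BMP4. Irf1-002, whose start lies 481 bases downstream, was at 7.28, 24.1 and 1.66 FPKM untreated and at 1.66, 0 and 9.37 with BMP4. The groups overlapped in both and neither passed (limma adjusted p = 0.556 and 0.537). Irf1-001 and Irf1-002 have the same coding length of 987 bases. The downstream start held 17.1%, 64.0% and 7.29% of the summed Irf1 transcripts untreated and 11.1%, 0% and 35.4% with BMP4. For Irf3, the full-length Irf3-001 was at 2.94 ± 0.619 FPKM untreated and 2.17 ± 0.311 with BMP4 and did not pass (limma adjusted p = 0.368). Irf3-006, at 1.02 ± 0.285 and 1.24 ± 0.129 FPKM, and Irf1-010, at 3.71, 0.527 and 10.5 untreated and 0.143, 1.63 and 0.541 with BMP4, did not pass either (limma adjusted p = 0.660 and 0.376). The single listed transcripts of Ifngr1 and Jak1 followed their genes (limma adjusted p = 0.332 and 0.378).

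Upstream of IRF3 and IRF7 stand sensors of foreign nucleic acid, their adaptors and kinases. Of 19 such genes tested, 8 fell, 0 rose and 11 did not pass, beside 14.3% lower and 13.6% higher among all genes. Their median log2 fold change was -0.23, and 6 to 7 fell with 1 sample left out. Earlier results of these data were known when the list was made, so this count is a description only. By adjusted p the first 3 were RNA sensor genes: Dhx58, which encodes LGP2, went from 20.2 ± 0.748 to 6.23 ± 0.443 FPKM (limma adjusted p = 6.13e-06), Ddx58, which encodes RIG-I, from 24.1 ± 1.29 to 12.5 ± 0.616, and Ifih1, which encodes MDA5, from 9.62 ± 0.851 to 5.04 ± 0.462. Tmem173, the gene of the DNA-sensing adaptor STING, fell from 18.0 ± 2.01 to 11.4 ± 0.580 FPKM (limma adjusted p = 0.00192). Tlr3, Trim25, Myd88 and Tank, named after their values were seen to complete the 8, had log2 fold changes of -0.83, -0.35, -0.43 and -0.35. The kinase TBK1 and the adaptor MAVS, which lie between sensor and IRF3, were chosen likewise. Tbk1 was at 21.3 ± 0.254 and 20.2 ± 1.12 FPKM and Mavs at 10.4, 10.1 and 9.55 FPKM untreated and 8.53, 9.75 and 10.5 with BMP4, and neither passed (limma adjusted p = 0.360 and 0.638). The sign of Mavs turned without BMP4 replicate 1, to 0.02. Whether the sensor genes fell ahead of the interferon targets, or as interferon targets themselves, was not tested.

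Downstream, genes that ISGF3 switches on fell almost throughout. Of 34 tested, 32 fell and 0 rose, with a median log2 fold change of -1.09, beside 14.3% of all genes lower with BMP4 and a median of 0.00. This list was chosen with earlier results of these data known, so its share beside that of all genes is a description only. Ifit3b fell from 30.5 ± 0.631 to 6.05 ± 0.217 FPKM and Ifit3 had a log2 fold change of -2.20, and reads of these near-identical neighbours may be divided wrongly. Ifit1 and Rsad2, whose proteins act against viral RNA and viral replication, had log2 fold changes of -1.99 and -2.19. The genes that did not pass, named after their values were seen, were Oasl1, at 6.02 ± 1.83 and 3.63 ± 0.311 FPKM (limma adjusted p = 0.0609), and Ifi27, at 105 ± 9.12 and 92.7 ± 4.67 (limma adjusted p = 0.119). Oasl1 passed with untreated replicate 1 left out (limma adjusted p = 0.00238). The summed fibroblast markers given above were also lower in all BMP4 samples, and whether that bears on the falls of these target genes was not tested.

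Of 23 tested genes that interferon-gamma and IRF1 induce, 18 fell and 0 rose, beside 14.3% lower and 13.6% higher among all genes. Their median log2 fold change was -0.93. These genes too were listed with earlier results of these data known, so the count is a description only. The ISRE core was found in 10 of 24 promoter windows of this list too, and which interferon these falls go back to was not tested. Gbp3, a guanylate-binding GTPase gene, fell by 1.71 on the log2 scale, the chemokine gene Cxcl10 fell by 2.16, the GTPase gene Irgm1 fell by 1.38 and Psmb10, an immunoproteasome subunit gene, fell by 1.52. The largest limma adjusted p of these was 6.68e-06, for Psmb10. The 5 that did not pass, named likewise, were Irgm2, Nlrc5, B2m, Casp1 and Serping1, with log2 fold changes of -0.58, -0.18, -0.18, -0.20 and -0.18. Irgm2 was at 27.2, 5.48 and 29.5 FPKM untreated and 11, 10.6 and 10.9 with BMP4, and passed without untreated replicate 2 (log2 fold change -1.31, limma adjusted p = 8.22e-05). Serping1 passed without untreated replicate 3 (limma adjusted p = 0.0312).

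Of 12 tested negative regulators of JAK-STAT signalling 4 fell and 2 rose, with a median log2 fold change of -0.04, beside 14.3% lower and 13.6% higher among all genes. The number that rose was 1 with any 1 sample left out. Usp18, the protease that blocks signalling at IFNAR2 and is itself an interferon target, was at 29.5, 25.5 and 26.4 FPKM untreated and 9.91, 9.91 and 9.73 with BMP4. Its log2 fold change of -1.37 (SE 0.06) passed with a limma adjusted p of 9.44e-06. Every treated sample was well below every untreated one. Socs3, a feedback inhibitor of interleukin-6 family signals, fell from 11.2 ± 0.824 to 6.58 ± 0.334 FPKM (limma adjusted p = 0.000452). Ptpn6, the gene of the phosphatase SHP-1, fell from 2.72 ± 0.188 to 1.81 ± 0.223 FPKM (limma adjusted p = 0.0111). Socs1, the feedback inhibitor of JAK1 and the interferon receptors, was named after its values were seen and fell from 3.86 ± 0.0362 to 2.73 ± 0.399 FPKM (limma adjusted p = 0.0160). It did not pass with untreated replicate 2 (0.0515), BMP4 replicate 1 (0.0604) or BMP4 replicate 2 (0.0554) left out. Pias2, an inhibitor of activated STATs, rose from 14.5 ± 0.489 to 19.4 ± 0.595 FPKM (limma adjusted p = 0.00129). Pias1, also named after its values were seen, had a log2 fold change of 0.16 (limma adjusted p = 0.0356) that did not pass without any 1 of the 6 samples, with limma adjusted p from 0.0597 to 0.133.

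**Figure D4:**
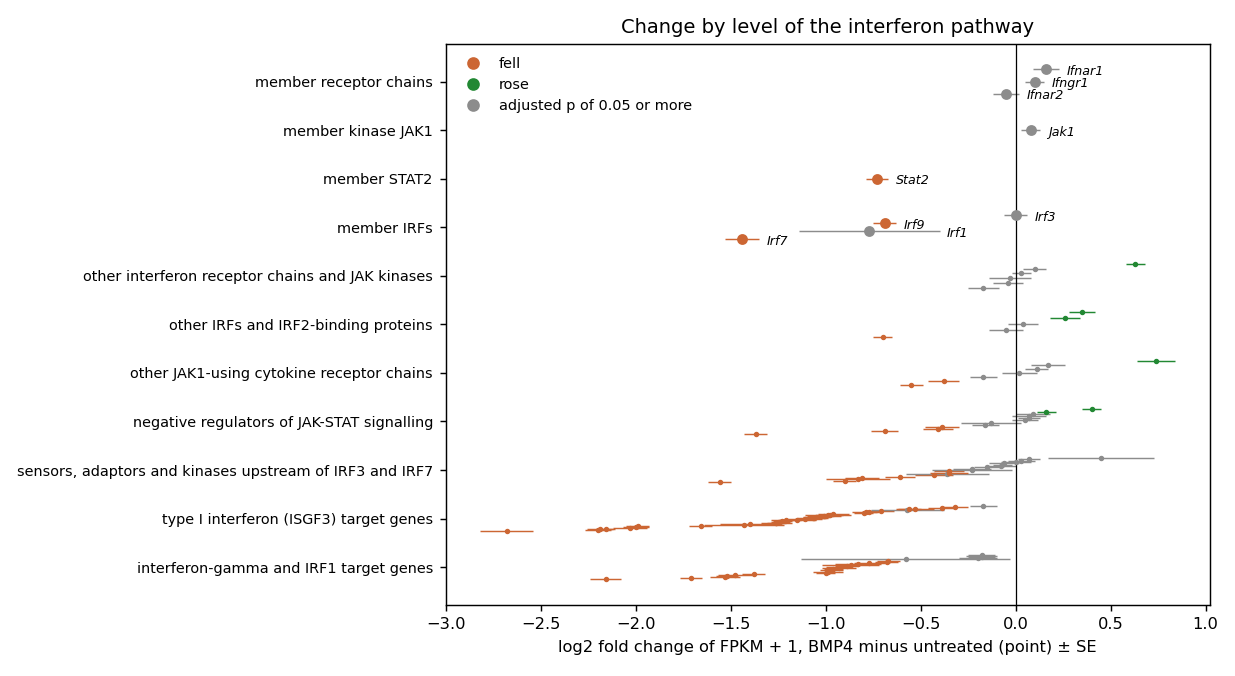
Log2 fold change of FPKM + 1, BMP4 minus untreated, with SE bars from limma, for each member (large points with names) and each tested gene of 7 pathway lists (small points), coloured by whether the gene fell, rose or had an adjusted p of 0.05 or more. The receptor chains and Jak1 lie near 0, Stat2, Irf9 and Irf7 lie at -0.73, -0.69 and -1.44, and most target genes lie below 0.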

How the data were processed

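The authors deposited FPKM per gene and per transcript, per the file headers, without read counts. HISAT2 and StringTie, with FastQC and cutadapt, appear in the submitters' processing notes, as does the build GRCm38, with versions and settings not given in the sources used here. Libraries were poly(A)-selected and strand-specific, per the labels' protocols. 1 empty line per file was left out. Without counts, depth per sample is unknown.

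From the deposited FPKM, log2(FPKM + 1) was computed, which understates changes of low genes. Features averaging 1 FPKM or more, 10932 genes and 17213 transcripts, were compared with limma 3.58.1 under R 4.3.3 (two-sided moderated test, intensity trend, no covariate, Benjamini-Hochberg over all features tested, threshold 0.05). All p-values and intervals come from these fits. Transcript balance is log2 of (a transcript + 1) over (the gene's other listed transcripts + 1), for genes with at least 2 transcripts past the filter.

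On simulated data with 200 changed features, the gene test (10932 genes in the fit) recovered 65.7%, 92.5% and 98.5% of the changed ones at sizes of 0.5, 1 and 2 (log2), with 3 false calls. The transcript test (17213 in the fit) recovered 7.5%, 35.8% and 72.7% of the changed ones at these sizes, with 4 false calls. The balance test (10232 in the fit) recovered 0%, 0% and 28.8% of the changed ones, with 3 false calls. In the data 3046 genes and 1472 transcripts passed, a larger share than was changed in the simulation. Since the adjusted p depends on that share, recovery of genes and transcripts in the data may differ from these rates.

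Members and lists were chosen with earlier results of these data known. Named genes are the 9 members, their transcripts, up to 4 genes per list in order of adjusted p, those few that moved against a list, and for each member the 3 genes most correlated with it. Exon structures and transcript sequences come from GENCODE M21, where all 24 member transcripts had the same version, and promoters from RefSeq. Alternatives covered pseudocount, filter, scaling, variance model, replicate block and leaving out each sample. Some items of these lists are not reported here.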

Additional observations from a re-analysis of the deposited data

How the results depend on the processing

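Stat2, Irf7 and Irf9 passed with the same direction under all 15 alternatives, with limma adjusted p up to 0.00127, 0.00059 and 0.00398. The receptor chain genes and Jak1 passed under none. The rise of Ifngr1 came closest with rescaling to equal sums (limma adjusted p = 0.0509), and that of Ifnar1 without untreated replicate 1 (0.062). The number of members lower with BMP4 was 3, and 3 to 4 when 1 sample was left out, Irf1 being the addition. Over all genes, leaving out 1 sample gave 985 to 1419 higher (1487 with all samples, 985 without BMP4 replicate 1), and 1051 to 1444 lower (1559 with all). Over transcripts it gave 339 to 543 higher (693 with all) and 400 to 536 lower (779 with all). Among member transcripts it gave 2 to 3 lower (5 with all) and 0 to 1 higher, the latter Irf1-008 without BMP4 replicate 1, whose mean over all 6 samples was below 1 FPKM. Balance called 25 transcripts in 17 genes, 15 to 28 in 10 to 19 genes when 1 sample was left out, 8 in 6 genes at a mean of at least 5 FPKM, and 60 genes, 1 of them a member, by diffSplice.

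Samples with the same replicate number showed no visible pairing: their deviations from group means correlated at -0.15, 0.05 and -0.22. Pairs with different numbers correlated at -0.10 to 0.22. With 3 samples per group this check cannot show whether samples were paired in culture, and the labels do not say. With the number as a replicate block, 994 genes were higher and 1046 lower, the 3 members among them, 168 transcripts were higher and 173 lower, 2 of them member transcripts, and balance called 0 transcripts in 0 genes. The calls of transcript Irf7-002, transcript Irf7-003 and transcript Irf9-003 were lost under the block (limma adjusted p = 0.136, 0.0787 and 0.0807), as were those of Stat6, Irf2, Pias1 and Tank. Oasl1 passed under it (0.0429). Over the samples left out in turn, the log2 fold change of Irf3 ran from -0.04 to 0.03, of Irf9-001 from -0.05 to 0.54 and of Mavs from -0.12 to 0.02. Signs turned for Irf3 (centring on the median gene, -0.02; without untreated replicate 2, -0.04; without BMP4 replicate 2, -0.01), for Irf9-001 (without untreated replicate 2, -0.05) and for Mavs (without BMP4 replicate 1, 0.02). The causes were not tested. The call of Tank was also lost with rescaling to equal sums (limma adjusted p = 0.0749) and without 5 of the 6 samples, and that of Myd88 without BMP4 replicate 1 (0.0647) or 2 (0.0609). Irf2 and Pias1 did not pass with centring on the median gene (0.0533 and 0.0528).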

Other observations

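JAK1 also serves receptors of other cytokines. Of 7 tested receptor chain genes outside the interferon system 2 fell and 1 rose, with a median log2 fold change of 0.02, beside 14.3% lower and 13.6% higher among all genes. Il4ra, a chain of the interleukin-4 receptor, fell from 8.91 ± 0.470 to 5.78 ± 0.0219 FPKM (SD, n = 3 per group, limma adjusted p = 0.000617), and Il6ra fell from 4.57 ± 0.0759 to 3.29 ± 0.340 (limma adjusted p = 0.0101). Lifr, the receptor of leukaemia inhibitory factor, rose from 10.8, 13.7 and 14.2 FPKM to 22.1, 23.6 and 20.6 (limma adjusted p = 0.00213). Osmr, the oncostatin M receptor gene, was at 9.26 ± 0.509 and 8.13 ± 0.508 FPKM and did not pass (limma adjusted p = 0.109).

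Genes outside the 9 members were ranked by Pearson's r of log2(FPKM + 1) over the 6 samples, as a description with no test, since genes that part the groups alike reach a high r by that alone. The closest to Irf7 were H2-Q1 (r = 0.9993), Oas1a (0.9992) and Psmb8 (0.9989), and H2-Q1 shares reads with other class I genes. The closest to Stat2 were Adora2a (0.9995), Lif (0.9991) and Rtp4 (0.9987). Lif, the ligand of the receptor encoded by Lifr, was at 1.79 ± 0.0600 FPKM untreated and 0.386 ± 0.0894 with BMP4. The closest to Irf9 were Hopx, Lrrc59 and Gem, with r from 0.9977 to 0.9979. For Irf1, which did not part the groups, close ones were Mrps28 (0.9903) and Slc10a3, and neither passed the test between groups. For Irf3 the closest were Taf1a, Mapk6 and Mterf4, for Jak1 Pole, Tom1l2 and Nav1, for Ifnar1 Mroh1, Adprh and Gmcl1, for Ifnar2 Sypl, Gga3 and Minos1, and for Ifngr1 Zbtb25, Mapkapk2 and Wwp2.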
